A study of Homo sapiens with 2 samples.

Results

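The genes described here are 38 genes of glycolysis and of the response to low oxygen. They were taken by symbol from a table of 29452 gene rows, and each symbol had 1 row. The RNA came from MDA-MB-231, an established human triple-negative breast cancer cell line. One library was made from cells carrying a short hairpin RNA against CDK14 (CDK14-sh), a cyclin-dependent kinase, and 1 from cells carrying a scramble control hairpin. The labels give no low-oxygen treatment, no time after hairpin delivery and no culture density, and they name no second hairpin or clone. With 1 library in each group the values compare these libraries and not the conditions, and no test across replicates could be made. In a bulk library, fewer cells that hold a transcript and less of it per cell cannot be told apart.

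Glycolysis splits glucose into pyruvate in the cytosol, and lactate dehydrogenase turns pyruvate into lactate, which leaves the cell through monocarboxylate transporters. The transcription factor HIF-1 joins an oxygen-sensitive alpha subunit, encoded by HIF1A, to ARNT. With oxygen present, prolyl hydroxylases of the EGLN family mark the alpha subunit, and VHL takes it to degradation, so HIF-1 activity is set mostly at the protein and not at the mRNA. Many glycolytic genes are HIF targets as well, and in tumour cells they are active even in oxygen.

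The libraries held 15478156 (CDK14-sh) and 17217564 (scramble) reads assigned to gene rows. Levels are RPKM, assigned reads scaled to the summed exon length and to the library total. Folds are plain ratios of RPKM, followed in parentheses by their 95% Clopper-Pearson counting interval, which covers counting error only. Log2 ratios compare CDK14-sh with scramble after adding 0.1 RPKM to each, which understates the change of low genes. The targeted gene, CDK14, was at 0.548 RPKM in CDK14-sh and 2.48 RPKM in scramble, 4.53-fold lower (3.40 to 6.11). Of the markers set as high for the line, VIM, CD44 and AXL stood at 79.7 RPKM or more in both libraries. SPARC, also set as high, was not, at 0.0669 RPKM or less. Of those set as low, CDH1, ESR1 and PGR were at 0.0379 RPKM or less, while EPCAM, ERBB2 and GATA3 lay between 2.33 and 5.46 RPKM. Of 13 markers of leukocytes, endothelium, fibroblasts and erythroid cells, 9 had rows, and 3 of these (VWF, DCN and LUM) were at 0 in both libraries. The 9 summed to 3.02 RPKM in CDK14-sh and 2.90 RPKM in scramble, with COL1A1 the highest at 1.99 and 1.65 RPKM.

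No gene of the set differed by 2-fold. Of the 38 genes, 33 reached 1 RPKM in the higher library, and 0 of these 33 were at least 2-fold higher or lower, while 6.68% of all 14878 rows at this level were (3.21% higher and 3.47% lower). At 1.5-fold, 0 of 33 passed as well, against 18.7% of all rows (9.11% higher and 9.55% lower). Many of those rows rest on few reads. Among the 6152 rows that also had at least 500 reads in the higher library, 2.78% passed 2-fold (0.585% higher and 2.19% lower) and 11.6% passed 1.5-fold (3.61% higher and 8.00% lower), and 0 of the 30 genes of the set with that many reads did so. The 0 at 1.5-fold rests on the scaling used. With the RPKM of each library scaled to the same sum (TPM), MXI1, LDHA, ANKRD37 and ADM were past 1.5-fold lower. PFKM, at 1.49-fold here, was past 1.5-fold higher once the totals excluded mitochondrial reads. A 1.25-fold threshold, chosen after the values had been seen, was passed by 4 genes that were higher and 7 that were lower, 11 of 33 together, against 41.2% of all rows (22.2% higher and 18.9% lower). The share of the set past 1.25-fold was thus below that of all rows, and close to the 32.2% of rows with at least 500 reads (14.1% higher and 18.1% lower), where 9 of 30 passed, 4 higher and 5 lower. The 4 higher genes were PFKM, P4HA1, SLC16A3 and SLC2A3, and the 7 lower ones LDHA, PKM, HK1, ENO2, ADM, ANKRD37 and MXI1. SLC2A3 was called from its own row alone, without the reads of a processed copy described below.

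**Figure D1:**
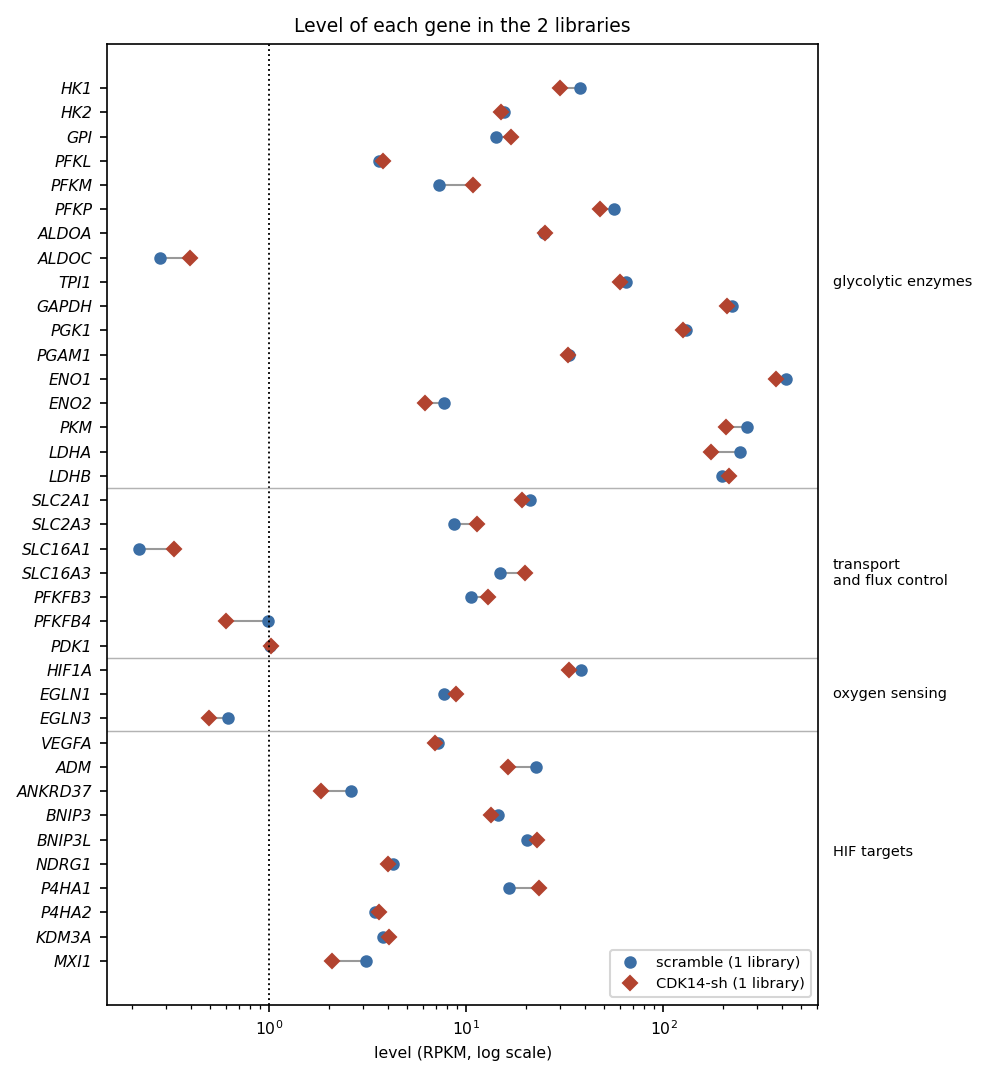
RPKM (log axis) of the 37 genes with reads in both libraries, scramble as circles and CDK14-sh as diamonds, 1 library each; the dotted line marks 1 RPKM. The enzymes span from ALDOC, under 0.4 RPKM, to ENO1, at 374 and 419 RPKM, and both libraries hold nearly the same order of levels.

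The median log2 ratio over the 33 genes was -0.05, beside 0.04 over all rows at 1 RPKM or more and 0.004 over rows with at least 500 reads. The lowest ratio was -0.54 (MXI1) and the highest 0.57 (PFKM). The quartiles of the set were -0.21 and 0.12, and those of the rows with at least 500 reads were -0.22 and 0.21. Of the 33 genes, 19 lay below 0. Scaling to TPM, in which the RPKM of every library sum to the same value, lowered the median of all rows by 0.15, to -0.11, and the median of the set to -0.21, with 25 of 33 genes below 0. The sign turned in TPM for 6 genes with ratios slightly above 0: PDK1, PFKL, ALDOA, LDHB, P4HA2 and KDM3A.

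**Figure D2:**
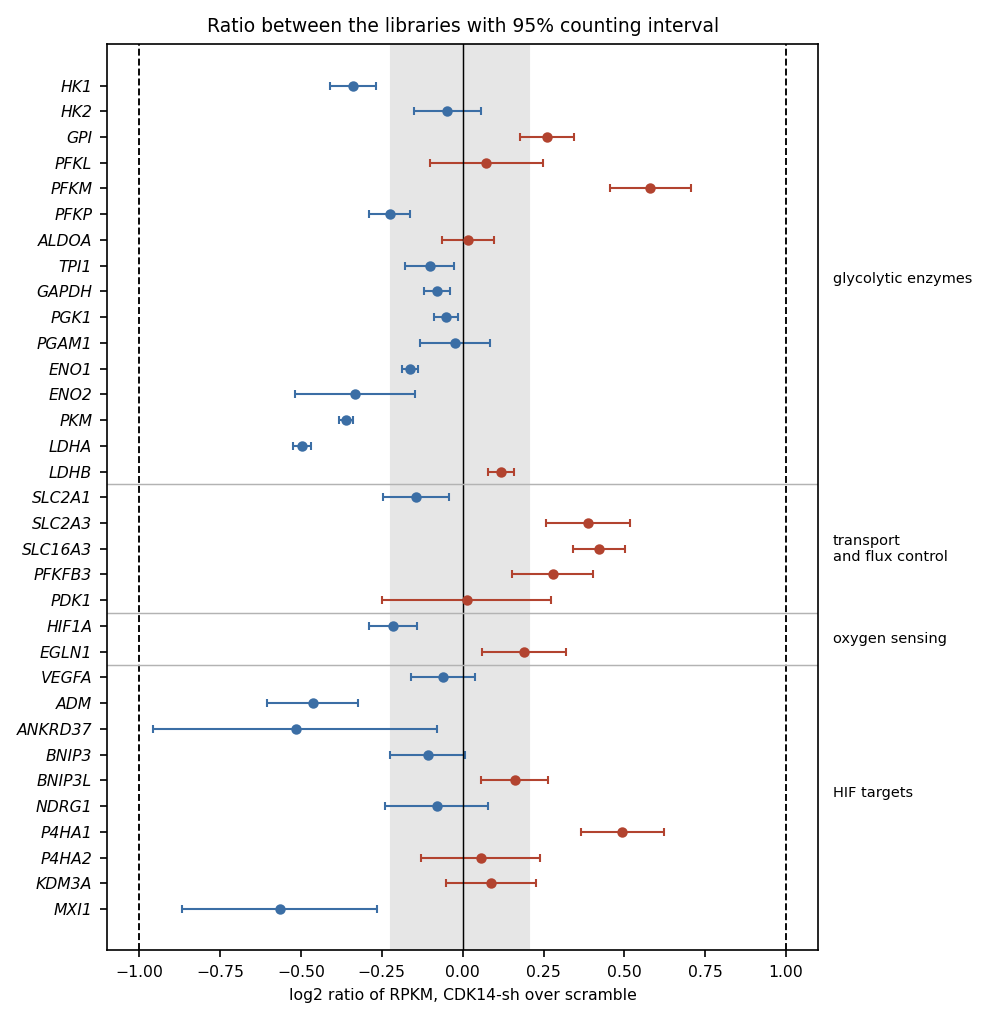
Log2 of the plain RPKM ratio (no pseudocount), CDK14-sh over scramble, with its 95% counting interval for the 33 genes at 1 RPKM or more; the grey band spans the quartiles of the 6152 rows with at least 500 reads (-0.22 to 0.21) and the dashed lines mark 2-fold. All 33 points lie inside the 2-fold lines, with PFKM farthest to the right and MXI1 farthest to the left.

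Glucose enters these cells through facilitative transporters. SLC2A1, encoding GLUT1, the basal transporter of most tumour cells, was at 19.1 RPKM in CDK14-sh and 21.1 RPKM in scramble, 1.11-fold lower (1.03 to 1.19). SLC2A3, encoding the high-affinity transporter GLUT3, was at 11.3 RPKM in CDK14-sh and 8.64 RPKM in scramble, 1.31-fold higher (1.20 to 1.43). The summed RPKM of the pair was 30.4 in CDK14-sh and 29.7 in scramble, a ratio of 1.02 (0.968 to 1.08), so the total was nearly equal while the makeup differed. GLUT3 made up 37.2% of the summed level in CDK14-sh (35.3% to 39.0%) and 29.05% in scramble (27.4% to 30.7%). A processed copy, SLC2A3P1, had its own row with 276 and 308 reads, beside 1077 and 916 reads of SLC2A3, and reads of so similar sequences may be split between the rows. With the reads of the copy added, the share of SLC2A3 was 42.6% in CDK14-sh and 35.4% in scramble.

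Hexokinases trap glucose by phosphorylating it. HK1, the widespread isozyme, was at 29.8 RPKM in CDK14-sh and 37.7 RPKM in scramble, 1.26-fold lower (1.20 to 1.33). HK2, the isozyme that many tumours induce, was at 15.0 and 15.5 RPKM, a ratio of 0.968 whose interval (0.901 to 1.04) includes 1. The summed hexokinase level was 1.19-fold lower in CDK14-sh (1.14 to 1.24), and HK2 made up 33.5% of it in CDK14-sh (32.1% to 34.9%) and 29.1% in scramble (27.9% to 30.4%). GPI, which converts glucose 6-phosphate to fructose 6-phosphate, was at 16.9 RPKM in CDK14-sh and 14.1 RPKM in scramble, 1.20-fold higher (1.13 to 1.27). A row of the same strand, RP11-618P17.4, shares 542 bases with GPI and had 730 and 533 reads, beside 2383 and 2212 of GPI.

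Phosphofructokinase, the committed step, is a tetramer built from subunits of 3 genes. PFKP, encoding the platelet-type subunit, was the most abundant at 47.8 RPKM in CDK14-sh and 55.9 RPKM in scramble, 1.17-fold lower (1.12 to 1.22). PFKM, encoding the muscle-type subunit, was at 10.8 and 7.24 RPKM, 1.49-fold higher (1.37 to 1.63), the highest ratio among the 33 genes at 1 RPKM or more. PFKM lay above 96.1% of the rows with at least 500 reads. PFKL, the liver type, was at 3.79 and 3.60 RPKM with an interval that includes 1 (0.932 to 1.19). The muscle type made up 17.3% of the summed RPKM of the 3 genes in CDK14-sh (16.4% to 18.3%) and 10.8% in scramble (10.2% to 11.6%). Their sum was 62.4 and 66.7 RPKM, 1.07-fold lower in CDK14-sh (1.03 to 1.11). On 8.62% of its exon length, the PFKM row overlaps SENP1, which lies on the opposite strand and had 442 and 476 reads, beside 1220 and 908 of PFKM.

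PFKFB enzymes make and degrade fructose 2,6-bisphosphate, the strongest activator of phosphofructokinase. PFKFB3, the form with the highest kinase activity, was at 12.8 RPKM in CDK14-sh and 10.6 RPKM in scramble, 1.21-fold higher (1.11 to 1.32). PFKFB4, a HIF-inducible form, had 57 reads in CDK14-sh and 104 in scramble, 0.603 and 0.989 RPKM, and so fell short of 1 RPKM in both libraries. Its ratio was 1.64-fold lower with a wide interval (1.18 to 2.31).

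The middle and lower steps of the pathway hold its most abundant mRNAs. ALDOA, encoding the aldolase of most tissues, was at 24.9 and 24.7 RPKM, a ratio of 1.01 (0.956 to 1.07), and ALDOC, the brain-type aldolase, had 18 and 14 reads. TPI1, which interconverts the triose phosphates, was at 60.3 RPKM in CDK14-sh and 64.8 RPKM in scramble, 1.07-fold lower (1.02 to 1.13). These rows differed little between the libraries. GAPDH, which oxidises glyceraldehyde 3-phosphate, was at 210 and 222 RPKM, 1.06-fold lower (1.03 to 1.09). PGK1, the first step that yields ATP, was at 125.6 and 130.2 RPKM, 1.04-fold lower (1.01 to 1.06), and PGAM1, the mutase, at 32.8 and 33.3 RPKM with an interval that includes 1 (0.912 to 1.06). GAPDH and PGK1 are often used as reference genes, and at this scaling both differed by less than 1.1-fold. In TPM their log2 ratios were -0.23 and -0.20, which is more than 1.1-fold.

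ENO1, encoding alpha-enolase, had the highest RPKM of the set, 374 in CDK14-sh and 419 in scramble, 1.12-fold lower (1.10 to 1.14). It ranked 87 of the 29452 rows in CDK14-sh and 74 in scramble. ENO2, encoding the neuron-type enolase, was at 6.14 and 7.73 RPKM, 1.26-fold lower (1.11 to 1.43). PKM, which encodes pyruvate kinase and is spliced into the M1 and M2 forms that these values do not tell apart, was at 207 and 266 RPKM, 1.28-fold lower (1.26 to 1.30). The PKM row held more reads than the ENO1 row, 27521 against 22931 in CDK14-sh and 39291 against 28565 in scramble. Its summed exons are 8571 bases long and those of ENO1 3958 bases.

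Lactate dehydrogenase differed in makeup. LDHA, encoding the M subunit, which HIF and MYC induce, was at 174 RPKM in CDK14-sh and 245 RPKM in scramble, 1.41-fold lower (1.38 to 1.44). LDHB, encoding the H subunit, was at 214 and 198 RPKM, 1.08-fold higher (1.05 to 1.12), though in TPM its log2 ratio was -0.04. By RPKM, LDHA was thus the more abundant of the pair in scramble, with 55.4% of their summed RPKM (54.8% to 56.0%), and the less abundant in CDK14-sh, with 44.8% (44.2% to 45.4%). Which gene is ahead depends on the summed exon lengths, 6210 bases for LDHA and 2983 bases for LDHB. In reads LDHA was ahead in both libraries, with 16713 against 9893 in CDK14-sh and 26242 against 10146 in scramble. The RPKM ratio of LDHA to LDHB was 1.24 in scramble and 0.811 in CDK14-sh. A share within a library does not change with the scaling between libraries, and adding the reads of the LDHA and LDHB pseudogene rows left both shares inside their intervals. LDHA lay on chromosome 11 (GRCh38, 18394388 to 18408425, plus strand), and its exons overlap no other row. In the distribution of rows with at least 500 reads it was not extreme, since 10.4% of them had a lower ratio.

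**Figure D3:**
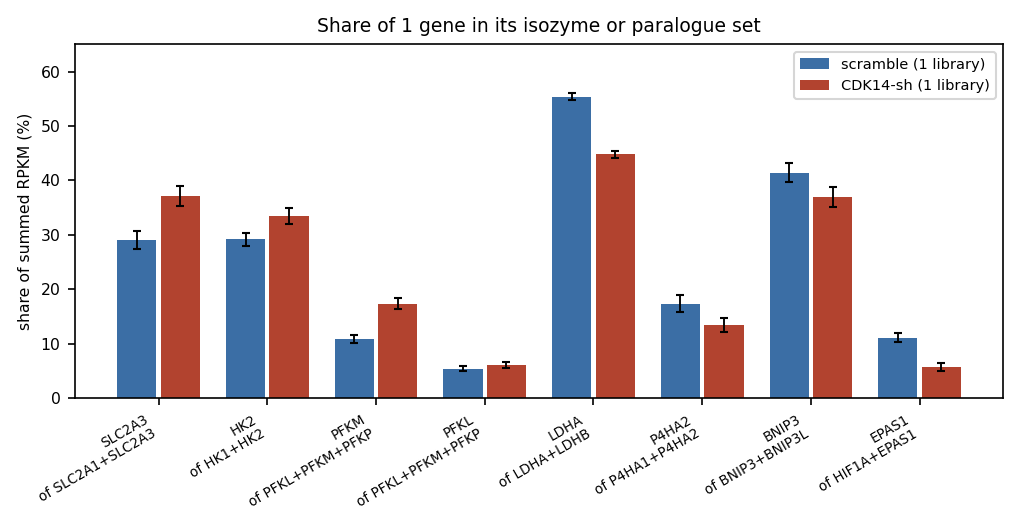
Share of the named gene in the summed RPKM of its isozyme or paralogue set, in percent, for scramble and CDK14-sh (1 library each); error bars are 95% counting intervals. LDHA stands at 55.4% in scramble and 44.8% in CDK14-sh, PFKM at 10.8% and 17.3%, SLC2A3 at 29.05% and 37.2%, and EPAS1 at 11.0% and 5.61%.

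Together the 17 enzyme genes took 0.867% of assigned reads in scramble (0.863% to 0.872%) and 0.748% in CDK14-sh (0.744% to 0.753%). ENO1, PKM, LDHA, GAPDH, PGK1 and LDHB held 85.6% of these reads in scramble and 84.0% in CDK14-sh. Of the 16 enzymes at 1 RPKM or more, 11 lay below 0, with a median log2 ratio of -0.07. That number was 14 in TPM, 12 after median centring or trimmed-mean scaling, and 10 once the totals excluded mitochondrial reads. The median log2 ratio of all rows moved as well, from 0.04 at the main scaling to -0.11 in TPM and 0.09 without mitochondrial reads. How many of all rows lay below 0 was not counted, so these counts have no background share beside them. Transcripts of the mitochondrial genome took 17.1% of reads in CDK14-sh and 14.5% in scramble, which lowers every nuclear level in CDK14-sh; with them left out, the enzymes took 0.902% of reads in CDK14-sh and 1.01% in scramble.

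Monocarboxylate transporters carry lactate across the cell membrane. SLC16A3, encoding MCT4, the export form that HIF induces, was at 19.8 RPKM in CDK14-sh and 14.8 RPKM in scramble, 1.34-fold higher (1.27 to 1.42). SLC16A1, encoding MCT1, had only 27 and 20 reads, 0.328 and 0.219 RPKM, or 1.63% and 1.46% of the summed level of the pair. SLC16A7, encoding MCT2, is outside the set and was at 2.67 and 2.66 RPKM (565 and 625 reads), a value named after it had been seen. SLC16A3 was higher in the library in which LDHA was lower. PDK1, a kinase that inhibits pyruvate dehydrogenase, which converts pyruvate to acetyl-CoA in mitochondria, was at 1.02 and 1.01 RPKM, just above the level filter, with a ratio of 1.01 (0.842 to 1.21). The summed exons of PDK1 are 14883 bases long, and its longest 3' untranslated region (UTR) takes 12700 of them, so 234 and 258 reads give a low level per length. A row of the opposite strand, AC093818.1, shares 445 of these bases and had 1220 and 1924 reads.

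The oxygen-sensing genes differed little. HIF1A was at 33.0 RPKM in CDK14-sh and 38.4 RPKM in scramble, 1.16-fold lower (1.10 to 1.22). EGLN1, encoding PHD2, the main oxygen sensor, was at 8.81 and 7.73 RPKM, 1.14-fold higher (1.04 to 1.25). EGLN3, encoding PHD3, which HIF induces strongly, was at 0.492 and 0.616 RPKM (56 and 78 reads), with an interval that includes 1 (0.556 to 1.14). A row on the same strand, RP11-618G20.1, shares 148 bases with HIF1A and held 1364 and 1641 reads beside 2635 and 3403 of HIF1A, so reads in the shared bases cannot be assigned to HIF1A alone.

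Of the 11 HIF targets, 10 reached 1 RPKM, 6 below and 4 above 0, with a median log2 ratio of -0.07. In TPM, which lowered the median of all rows from 0.04 to -0.11, 8 lay below and 2 above. Lower in CDK14-sh was ADM, encoding the vasodilator peptide adrenomedullin, at 16.3 RPKM against 22.5 RPKM, 1.38-fold lower (1.25 to 1.52). MXI1, encoding a MAX partner that opposes MYC, was at 2.09 and 3.09 RPKM (149 and 245 reads), 1.48-fold lower (1.20 to 1.82). ANKRD37, encoding an ankyrin-repeat protein, was at 1.83 and 2.61 RPKM (73 and 116 reads), 1.43-fold lower (1.06 to 1.94), and shares 35.2% of its exon length with UFSP2 on the opposite strand. P4HA1 went the other way. It encodes the catalytic subunit of collagen prolyl 4-hydroxylase and was at 23.3 RPKM in CDK14-sh and 16.5 RPKM in scramble, 1.41-fold higher (1.29 to 1.54), while its paralogue P4HA2 was at 3.59 and 3.45 RPKM with an interval that includes 1 (0.915 to 1.18). P4HA2 made up 13.3% of the level of the pair in CDK14-sh (12.1% to 14.7%) and 17.3% in scramble (15.7% to 18.9%).

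VEGFA, the angiogenic growth factor that serves as a standard HIF readout, was at 6.91 RPKM in CDK14-sh and 7.21 RPKM in scramble, a ratio of 0.958 (0.895 to 1.03). The mitophagy receptors split, with BNIP3 at 13.4 and 14.4 RPKM (ratio 0.928, 0.856 to 1.01) and BNIP3L at 22.8 and 20.4 RPKM (1.12, 1.04 to 1.20), and the share of BNIP3 in the pair was 37.0% in CDK14-sh (35.2% to 38.8%) and 41.4% in scramble (39.6% to 43.2%). NDRG1, a stress-induced gene, was at 3.999 and 4.23 RPKM, and KDM3A, encoding a histone H3 lysine 9 demethylase, at 4.03 and 3.79 RPKM, both with intervals that include 1. CA9, encoding the membrane carbonic anhydrase IX that marks hypoxic tumour cells, had 1 read in CDK14-sh and 0 in scramble. In its exon length, 3 reads would be 0.116 RPKM in CDK14-sh and 0.104 RPKM in scramble, so CA9 was not detectable above that level. CA9 was thus at the detection limit in both libraries, while VEGFA, BNIP3 and BNIP3L were expressed at levels that differed by less than 1.2-fold.

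Other genes of these pathways, in 6 lists of 105 symbols, included genes past 2-fold. Of the 75 at 1 RPKM or more with an annotated 3' UTR, 3 were at least 2-fold higher and 4 lower. Over all 14878 rows at this level, 6.68% passed 2-fold (3.21% higher and 3.47% lower), so such genes are not particular to these lists. Among 15 measured genes of the HIF machinery, 1 was at least 2-fold lower and 0 higher (median log2 ratio -0.03). EPAS1, which encodes HIF-2 alpha, was at 1.964 RPKM in CDK14-sh and 4.76 RPKM in scramble, 2.43-fold lower (2.08 to 2.84). HIF1A thus took 94.4% of the summed alpha-subunit level in CDK14-sh (93.6% to 95.1%) and 89.0% in scramble (88.1% to 89.8%). CITED2, encoding a competitor of HIF for its co-activators, was at 22.2 and 41.8 RPKM, 1.88-fold lower (1.74 to 2.05), and CREBBP, encoding 1 such co-activator, 1.503-fold lower (1.38 to 1.64). VHL was at 13.3 and 9.14 RPKM, 1.46-fold higher (1.32 to 1.62).

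Further HIF targets went both ways: of 24 at 1 RPKM or more, 2 were at least 2-fold higher and 2 lower (median 0.16). Among the higher genes, ANGPTL4, encoding an inhibitor of lipoprotein lipase, had 49 and 25 reads, 2.18-fold higher (1.32 to 3.68). INSIG2, which holds the SREBP system in the endoplasmic reticulum, was at 4.81 and 12.7 RPKM, 2.63-fold lower (2.30 to 3.02), and CCNG2, encoding cyclin G2, at 1.65 and 4.37 RPKM, 2.65-fold lower (2.24 to 3.14).

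In the pentose phosphate and serine branches, 1 of 13 genes was at least 2-fold higher and 1 lower, and both act on ribulose 5-phosphate. RPIA, which isomerises it to ribose 5-phosphate, was at 28.4 RPKM in CDK14-sh and 11.7 RPKM in scramble, 2.43-fold higher (2.15 to 2.76). RPE, which epimerises it to xylulose 5-phosphate, was at 8.05 and 16.6 RPKM, 2.06-fold lower (1.84 to 2.31), and shares 23.8% of its exon length with KANSL1L on the opposite strand. PSPH, the last enzyme of serine synthesis, was 1.63-fold higher (1.45 to 1.84).

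Among 13 genes of pyruvate entry to mitochondria at 1 RPKM or more, 0 passed 2-fold (median 0.03). MPC2, a subunit of the mitochondrial pyruvate carrier, was 1.42-fold higher (1.25 to 1.60) and DLD, the dihydrolipoamide dehydrogenase, 1.24-fold lower (1.17 to 1.30), while PDK2 was 1.31-fold higher (1.02 to 1.69) and PDK4, with 53 and 41 reads, had an interval that includes 1 (0.939 to 2.22). Of these, MPC2 and PDK2 share 22.5% and 38.6% of their exon length with other rows. Of the other glycolytic paralogues, 9 reached 1 RPKM and 0 passed 2-fold (median 0.09). BSG, encoding basigin, the chaperone that carries MCT4 to the cell surface, was at 25.1 RPKM in CDK14-sh and 37.4 RPKM in scramble, 1.49-fold lower (1.40 to 1.59), in the library with the higher SLC16A3. SLC2A8, a glucose transporter gene short of 1 RPKM, had 23 and 66 reads, 2.58-fold lower (1.58 to 4.35), SLC2A6 had 64 and 47 reads, 1.51-fold higher (1.02 to 2.26), and SLC2A10 had 22 and 38 reads with an interval that includes 1 (0.363 to 1.12). ENO3, named here after its values had been seen, was at 65.5 and 65.7 RPKM, above ENO2; it is known as the muscle enolase and shares 111 bases with PFN1, a row of the opposite strand at 402 and 404 RPKM. Of 3 gluconeogenic genes at 1 RPKM or more, 0 passed 2-fold (median -0.21): FBP1 was 1.16-fold lower (1.00 to 1.33), and G6PC3 and PCK2 had intervals that include 1.

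The 7-base word GTCATGC with TCATGCA, its shift by 1 base, and the word ATCCATA with its shift TCCATAA had been picked in earlier work on these libraries for their frequency in the 3' UTRs of lower genes, so their distribution describes these ratios and tests nothing. At least 1 of them, on the transcript strand and with overlaps allowed, occurred in 25.1% of 10396 coding rows at 1 RPKM or more, in 56.4% of the 225 that were at least 2-fold lower and in 15.7% of the 108 that were at least 2-fold higher. These groups differ in length as well, with a median 3' UTR of 1359.5 bases over all, 1880 bases in the lower rows and 855.5 bases in the higher rows. In the set of 38, 0 of 17 glycolytic enzymes and 7 of the other 21 genes held one. The enzymes have short 3' UTRs, with a median of 621 bases against 1925 bases for the other 21 genes, and the shares were not matched on length. Among the genes with low ratios, PFKFB4 (-0.63, short of 1 RPKM), MXI1 (-0.54) and ANKRD37 (-0.49) held a word. LDHA (-0.50), ADM (-0.46), PKM (-0.36), HK1 (-0.34) and ENO2 (-0.33) held none. HIF1A, PDK1, P4HA2 and EGLN1 held one as well, at ratios of -0.21, 0.01, 0.05 and 0.19. Of the further pathway genes at 1 RPKM or more, 19 of 75 held a word, among them 4 of the 4 that were at least 2-fold lower (EPAS1, INSIG2, CCNG2 and RPE) and 0 of the 3 that were at least 2-fold higher. The median 3' UTR was 2255.5 bases in these 4 and 857 bases in these 3. Sites are shown, 5′ to 3′ as DNA of the transcript strand with the words in capitals, for some lower genes and, for contrast, for EGLN1. EGLN1 carries a word at a ratio above 0. The sites of PDK1, P4HA2 and the remaining further genes with a word are left out, so the choice shown is weighted to lower genes. They were read from GENCODE v29 transcripts on GRCh38.
MXI1, chr10:110285594-110285623, plus strand: gaaagggatcaTCATGCAgctcaactttct
MXI1, chr10:110285930-110285959, plus strand: ttttaaagcttATCCATAAaaaaaaataga
ANKRD37, chr4:185400048-185400077, plus strand: acgccttcattTCATGCAaatctataagct
PFKFB4, chr3:48518555-48518584, minus strand: gtccagtgtctGTCATGCccctgagttctt
HIF1A, chr14:61747968-61747997, plus strand: gaaaaaaaaaaTCATGCAttcttagcaaaa
EGLN1, chr1:231364822-231364851, minus strand: taaagggtggtATCCATAttttgcgtgaat
EPAS1, chr2:46384931-46384960, plus strand: taatttatattATCCATAggtttctctccc
EPAS1, chr2:46385881-46385910, plus strand: tagacgggaatTCATGCAaatgaggggtca
INSIG2, chr2:118108661-118108690, plus strand: atattgttcctGTCATGCAgagtataagaa
CCNG2, chr4:77166622-77166651, plus strand: ttactttaaaaATCCATAAtctgctagttt
RPE, chr2:210021085-210021114, plus strand: atacagagtcaATCCATAAactaaatattt

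**Figure D4:**
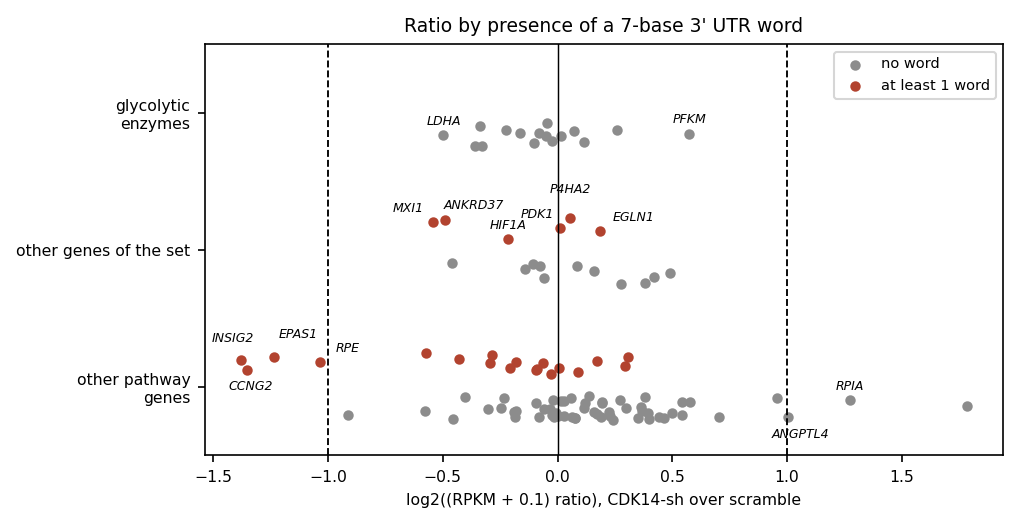
Log2 ratio (RPKM + 0.1), CDK14-sh over scramble, for genes at 1 RPKM or more with (red) and without (grey) at least 1 of the 4 words in the 3' UTR: 16 glycolytic enzymes, the 17 other genes of the set, and 75 further pathway genes; vertical position within a row is arbitrary and dashed lines mark 2-fold. The 16 enzymes have no word, and the 4 further genes left of the lower 2-fold line, INSIG2, CCNG2, EPAS1 and RPE, all have one.

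HIF binds the core words ACGTG and GCGTG, and both were searched on either strand in RefSeq promoter windows on GRCh38.p14 (300 bases, from 250 before a start to 50 after it), with overlapping matches of a word merged into 1 place. Of the 38 genes, 33 had windows, 63 in all because some genes have several starts. ACGTG occurred in 24 of these 63 windows (38.1%), against 21.4% of all 35116 windows, and GCGTG in 26 (41.3%), against 36.5%. Windows of a gene are not independent, and HK1 and PFKM had 7 each. All windows, of 27305 genes, were not matched to those of the set on base composition. A match is only a run of letters and shows no binding. Genes of the set with and without ACGTG in a window covered overlapping ranges of log2 ratio among those at 1 RPKM or more, from -0.54 to 0.57 (18 genes, median -0.05) and from -0.46 to 0.12 (11 genes, median -0.14). With and without GCGTG the ranges overlapped too, from -0.54 to 0.42 (18 genes, median -0.13) and from -0.49 to 0.57 (11 genes, median 0.02). The medians of the 2 words were thus ordered in opposite ways. LDHA, with 3 places, and PGK1, with 3, held the most in a single window. The places upstream of the start are shown for LDHA and ANKRD37, which were lower in CDK14-sh, and for P4HA1 and PFKM, which were higher. These genes were chosen for their ratios, and the places of the other genes are left out. A link between the word and the direction was not tested. Capitals mark ACGTG or its reverse complement CACGT, and CACGTG where both overlap.
LDHA, chr11:18394370-18394391, plus strand: tcccagcgCACGTGgagcagtc
LDHA, chr11:18394468-18394489, plus strand: ccgactcaCACGTGggttcccg
LDHA, chr11:18394482-18394502, plus strand: ggttcccgCACGTccgccggc
ANKRD37, chr4:185396671-185396692, plus strand: ccgggctcCACGTGccagtgtt
ANKRD37, chr4:185396690-185396710, plus strand: gtttgtgtACGTGcggccgtg
P4HA1, chr10:73096940-73096960, minus strand: atcgagctCACGTagcgaggg
PFKM, chr12:48105351-48105371, plus strand: ccagagatCACGTtagggtac

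Some rows of the set share exons with others, and this bears on single values. Of the 38 rows, 21 share at least 1 exon base with another row and 4 share at least 10% of their exon length: CA9, ANKRD37, GAPDH and ALDOC. A row of the opposite strand, RP5-940J5.9, lies wholly within GAPDH exons (422 bases) and held 2461 reads in CDK14-sh and 2947 in scramble, beside 9704 and 11403 of GAPDH. Its RPKM, 377 and 406, was above that of GAPDH, and whether those reads were counted for both rows was not tested. Named pseudogene rows of BNIP3 (14 rows) had reads equal to 5.43% of those of BNIP3 in CDK14-sh and 3.63% in scramble, and those of LDHA (5 rows) 0.7001% and 0.713%. For the other genes with such rows, apart from SLC2A3, the reads came to 1.09% or less.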

How the data were processed

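The authors deposited RPKM per gene row for 1 library per group, made with a stranded mRNA kit, per the labels' protocols. Per the submitters' processing notes, the tools were Subread 1.5.1, its featureCounts and Bowtie 0.12.2, and the builds GRCh38 and mm8, with no roles. How strand, overlapping genes and multi-mapped reads were treated is not stated in them. All 38 rows overlapped their GENCODE v29 gene on GRCh38, 31 with the same start and end. In each library, 100% of values above 0, once multiplied by length, were whole multiples (within 0.01) of what 1 read is worth, and reads per row came from this. Clopper-Pearson intervals were made from these reads; without molecular identifiers, PCR copies count as separate reads, and intervals cover counting error only.

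Ratios used a pseudocount of 0.1 RPKM over rows whose higher library reached 1 RPKM. Intervals of summed levels used a normal approximation on the log scale. The set and its lists were chosen with earlier results of these data known. All 38 genes are named. From each list of further genes, up to 4 with the largest absolute log2 ratio and at least 30 reads in the higher library are named. Some results under this rule are not reported here. The longest 3' UTR among GENCODE basic transcripts was searched. Calculations were tested on simulated data. Alternatives covered the pseudocount, level filter, scaling, threshold, pseudogene reads and mitochondrial reads. Tables were read with pandas 2.3.3, statistics came from scipy 1.17.1 and numpy 2.4.6 under Python 3.11.15, and plots from matplotlib 3.10.9.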

Additional observations from a re-analysis of the deposited data

How the results depend on the processing

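No paired analysis was possible because there was 1 library per group. The 1.25-fold threshold, the minimum of 500 reads, the totals without mitochondrial reads and the limit of 10% shared exon length were chosen after seeing the data. Genes of the set past the threshold numbered 0 higher and 0 lower in every setting run at 2-fold. At the main scaling they also numbered 0 and 0 at 1.5-fold, and 4 and 7 at 1.25-fold. The count at 1.5-fold does not hold under rescaling for genes at 1 RPKM or more. In TPM, MXI1 (-0.70), LDHA (-0.65), ANKRD37 (-0.65) and ADM (-0.61) were past 1.5-fold lower. MXI1 was just past it after median centring (-0.586). Without mitochondrial reads in the totals, PFKM (0.62) was past 1.5-fold higher. All rows past 2-fold numbered 478 higher and 516 lower. They numbered 2173 and 2043 without a filter on level, 83 and 177 under a filter of 5 RPKM, 36 and 135 when 500 reads were required, and 176 and 259 after adding 1 RPKM to each level. They numbered 1355 and 1421 at 1.5-fold, 3310 and 2819 at 1.25-fold, and 609 and 1128 in TPM.

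The median log2 ratio of the glycolytic enzymes was -0.22 in TPM. That of the 33 genes was -0.21 in TPM, -0.096 after median centring, -0.098 with trimmed-mean scaling and -0.013 without mitochondrial reads in the totals. All of these settings shift every ratio by nearly the same amount. Of 185 single values under 5 settings, 141 stayed within their counting interval and 44 moved out of it, 26 of these in TPM. The sign turned for 7 genes: PDK1, PFKL, ALDOA, LDHB, P4HA2 and KDM3A in TPM, PDK1 and ALDOA also after centring or trimmed-mean scaling, and PGAM1 without mitochondrial reads. Without mitochondrial rows the enzymes took 0.902% and 1.01% of reads, and 0.656% of summed RPKM in CDK14-sh and 0.744% in scramble, against 0.257% and 0.320% with them. With pseudogene reads added, SLC2A1 took 57.4% of the uptake pair in CDK14-sh and 64.6% in scramble, and SLC2A3 took 42.6% and 35.4%. Depth limits CA9, ALDOC, SLC16A1, EGLN3 and PFKFB4, which had 104 reads or fewer in each library.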
